A study of Homo sapiens with 12 samples.

Results

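The response of wild type bronchial cells to bleomycin was described across all genes from 6 of the 12 libraries of the series, 3 from control medium and 3 from bleomycin-treated cells. The libraries were taken by their genotype and treatment labels. They held poly(A)-selected RNA of Beas-2b, a human bronchial epithelial line that was immortalised with a viral large T antigen. Both groups were wild type, and the knockout cells of the series were not used here. Control cells were kept in medium, and treated cells received bleomycin, which the labels give as 10 mg/ml over 2 days, to make them senescent. The design text calls the 3 libraries of a group biological replicates. The series title places the work in pulmonary fibrosis, and the libraries model it in 1 cultured line, without the fibroblasts and immune cells of the lung.

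Bleomycin is an antibiotic that binds iron and cuts both strands of DNA, and it is used to provoke lung fibrosis in animals. Damaged cells stop dividing, and cells that stay arrested can become senescent. Senescent cells are known to secrete cytokines, growth factors and proteases, to lose the nuclear lamina protein lamin B1 and to enlarge their lysosomes. In the airway, basal cells are known to repair wounds by squamous differentiation, in which they exchange simple keratins and junctions for those of stratified epithelium.

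Many genes changed with bleomycin. Of 16033 genes with enough counts to be tested, 8986 (56.0%) passed edgeR's quasi-likelihood test at a Benjamini-Hochberg adjusted p under 0.05, 4697 higher (29.3%) and 4289 lower (26.8%). With all 12 libraries of the series in the fit, 7262 of 16702 genes were called, and without bleomycin replicate 2, 8099 of 16400. Large rises outnumbered large falls, with 2054 genes called and at least 2-fold higher (12.8%) against 884 at least 2-fold lower (5.51%). The median log2 fold change over all tested genes was 0.02. In 9978 genes (62.2%) every bleomycin library lay on the same side of every control library. In bulk RNA, a change in the number of cells of a kind and a change in RNA per cell cannot be told apart. These shares are the background against which the counts of each gene group below are read. The groups were described by counts and medians only, and no enrichment was tested. The lists and their members were chosen with earlier results of these data known, so their counts are not independent of these values.

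**Figure D1:**
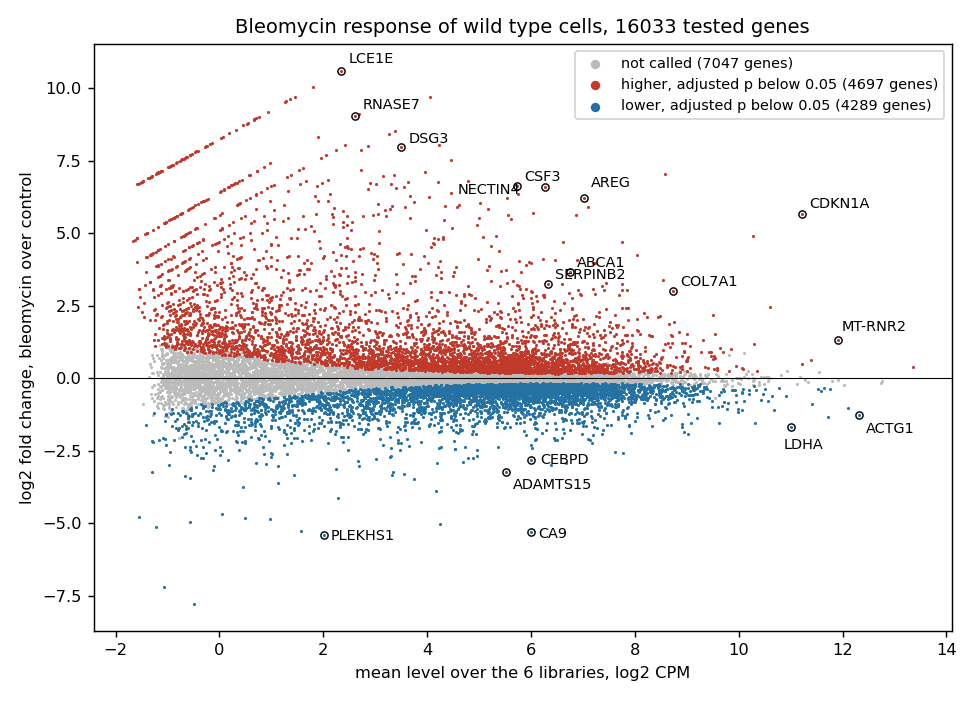
Each point is a tested gene, placed by its mean level over the 6 libraries (log2 CPM, where CPM is the count scaled to a library of 1e6 reads) and its log2 fold change of bleomycin over control; red points were called higher and blue points lower by edgeR. The upper left is filled by genes with few or no control counts, and the 884 genes at least 2-fold lower reach less far down than the 2054 genes at least 2-fold higher reach up.

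Library totals ran from 18.5 to 21.9 megacounts in control and from 16.9 to 18.9 in bleomycin (two-sided exact permutation p = 0.3, where 3 against 3 allows no p below 0.1). A count of 0 in a library allowed up to 3 counts, or 0.137 to 0.173 CPM. Mitochondrial transcripts took 4.02% to 4.31% of control counts and 4.29% to 5.13% of bleomycin counts (exact permutation p = 0.2). Each bleomycin library detected 26858 to 27175 genes, against 23248 to 24264 in control (exact permutation p = 0.1, the smallest possible). Control replicate 1 and bleomycin replicate 3 stood somewhat apart. In a chi-square test of counts, control replicate 1 gave 18.3 and 18.6 per gene against the other controls, and those gave 4.06 against each other. Bleomycin replicate 3 gave 10.3 and 9.04 against its group, and the others gave 2.93.

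**Figure D2:**
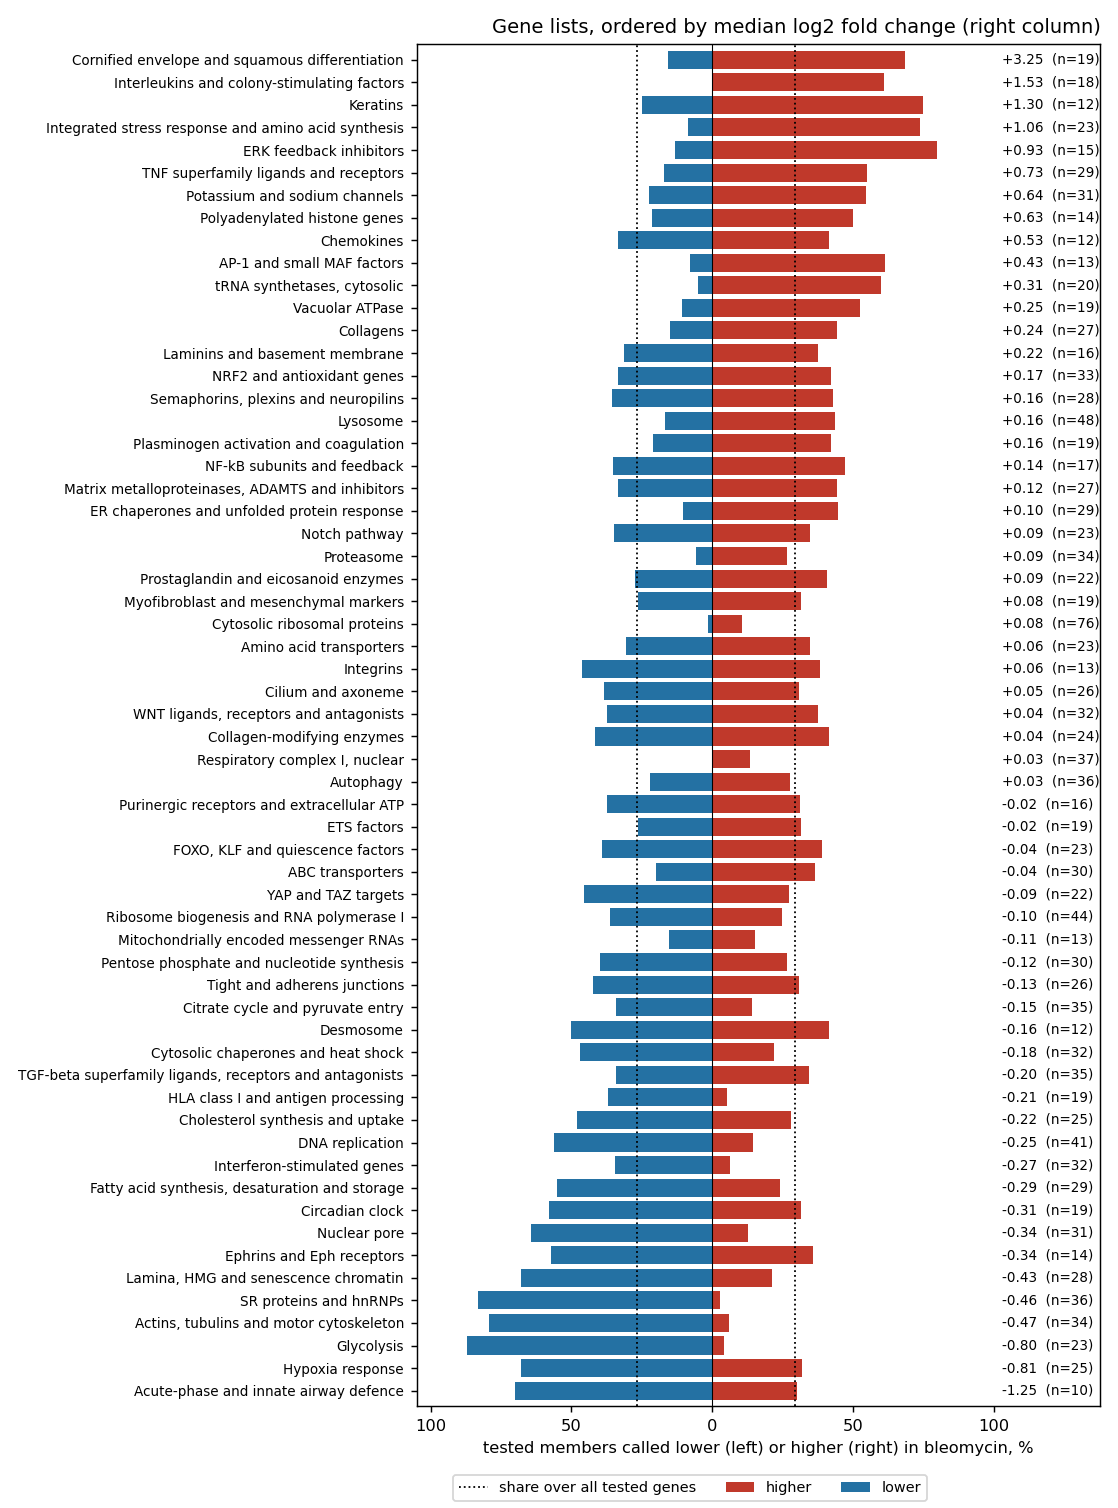
Bars give the percentage of tested members called higher (red, right) or lower (blue, left) in each list with at least 10 tested members, dotted lines mark the shares over all tested genes (29.3% and 26.8%), and the right column gives the median log2 fold change. Cornified envelope genes and interleukins stand at the top, and glycolysis, hypoxia and acute-phase genes at the bottom.

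Ligands of the EGF receptor, which drive growth and wound closure in airway epithelium, rose together. All 9 tested members of the ligand and receptor list (12 listed) were called, 7 higher and 2 lower, with a median log2 fold change of 2.14. AREG encodes amphiregulin. It stood at 3.33, 3.79 and 3.16 CPM in the controls and 246, 267 and 257 CPM in bleomycin. It rose 74.4-fold (log2 fold change 6.22, SE 0.10, edgeR adjusted p = 5.56e-15), and the groups lay far apart. NRG1, the ligand neuregulin 1, rose from 3.39 ± 0.869 to 59.6 ± 2.44 CPM (SD, n = 3). EREG (epiregulin) rose from 6.63 ± 0.994 to 68.2 ± 10.2 CPM, TGFA from 15.3 ± 0.969 to 92.6 ± 0.898 CPM and HBEGF from 27.9 ± 1.78 to 86.2 ± 8.63 CPM. Among the receptors, EGFR rose slightly from 277 ± 17.5 to 355 ± 38.3 CPM. The 2 receptor genes that fell were ERBB3, a neuregulin receptor (7.83, 8.37 and 9.43 CPM against 1.30, 0.922 and 0.699 CPM), and ERBB2, its signalling partner (128 ± 9.94 to 65.8 ± 1.98 CPM). The receptor for neuregulin and neuregulin itself therefore moved in opposite directions, by log2 fold changes of -3.12 and 4.13.

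Feedback inhibitors of the ERK kinases, whose transcription follows ERK activity, also rose, 12 of 15 tested with 2 lower and a median of 0.93. SPRY4, a Sprouty inhibitor of receptor signalling, rose 7.82-fold (1.58 ± 0.204 to 12.4 ± 1.76 CPM). The ERK phosphatase gene DUSP6 rose 5.82-fold and DUSP5 3.59-fold. IER3 stood at 112, 96.0 and 95.7 CPM in control and 479, 476 and 487 CPM in bleomycin. The immediate-early gene was thus nearly level within each group and higher in every treated library. ERRFI1, which binds and blocks the EGF receptor, went the other way, from 144 ± 10.4 to 54.5 ± 0.654 CPM (log2 fold change -1.40, SE 0.07). ETV4 and ETV5, ETS factors that respond to ERK, rose 7.53-fold and 5.42-fold, while over the whole ETS list 6 of 19 rose and 5 fell, close to the shares over all genes. Of 13 tested AP-1 and small MAF genes, 8 rose and 1 fell. ATF3, a stress-induced member, rose 9.19-fold (10.7 ± 2.44 to 97.7 ± 4.16 CPM). FOSL2 fell slightly (log2 fold change -0.32).

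Secreted inflammatory mediators rose, led by interleukins and colony-stimulating factors. Of 18 tested (22 listed), 11 rose and none fell, with a median of 1.53. The summed level of the list rose from 259 to 278 CPM in control to 1260 to 1377 CPM in bleomycin. CSF3 encodes the granulocyte factor G-CSF. Its control libraries held 0.808, 1.19 and 1.20 CPM and its bleomycin libraries 109, 119 and 87.3 CPM (log2 fold change 6.62, SE 0.17, edgeR adjusted p = 3.52e-12). The lowest treated library was thus far above the highest control. IL24 rose 39.5-fold (1.53 ± 0.103 to 60.7 ± 2.86 CPM) and CSF2, which encodes GM-CSF, 17.5-fold (8.19 ± 0.916 to 143 ± 13.2 CPM). The interleukin 1 genes, which lie side by side on chromosome 2, rose together. IL1A stood at 4.55, 2.47 and 2.18 CPM in control and 63.5, 73.1 and 80.1 CPM in bleomycin, and IL1B at 21.4, 18.3 and 14.5 CPM and 278, 266 and 308 CPM. In both genes control replicate 1 was the highest control and still far below every treated library. The gp130 cytokines IL6, IL11 and LIF rose 7.38-fold, 7.63-fold and 4.32-fold.

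Chemokine genes moved in both directions, with 5 of 12 tested higher and 4 lower. The neutrophil attractants of the CXC family rose. CXCL8, interleukin 8, stood at 311, 243 and 233 CPM in control and 1123, 1161 and 1303 CPM in bleomycin, and was among the 8 genes that gained the most CPM. CXCL1, CXCL2, CXCL3 and CXCL5 rose 2.85-fold, 4.95-fold, 6.48-fold and 2.43-fold, and these 4 form a run of neighbouring genes on chromosome 4. Reads of this family may be split between near-identical members. CCL2, the monocyte attractant, fell from 50.3 ± 6.45 to 18.1 ± 3.73 CPM, and CXCL16 fell from 9.19 ± 1.71 to 3.66 ± 0.480 CPM.

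The NF-kB list moved both ways, with 8 of 17 higher and 6 lower. Its feedback inhibitor TNFAIP3 (A20) rose from 54.1, 49.9 and 55.3 CPM to 252, 276 and 259 CPM, and the adaptor TRAF1 rose 7.64-fold. BCL3, a nuclear cofactor, fell 2.05-fold, and NFKBIA, the inhibitor that is usually induced with TNFAIP3, fell from 159 ± 6.11 to 112 ± 3.80 CPM. In the TNF superfamily, 16 of 29 tested members rose and 5 fell (median 0.73), and 4 of the 29 passed the filter only through their bleomycin level. The lower count was 3 without control replicate 2, bleomycin replicate 1 or bleomycin replicate 2. FAS, the death receptor, stood at 7.48, 8.05 and 7.19 CPM in control and 115, 123 and 125 CPM in bleomycin. FAS and EDA2R (2.13 ± 0.733 to 35.8 ± 3.90 CPM) are both known p53 targets. The ligand gene TNFSF15 rose from 12 counts over the controls to 381 over the treated libraries, and its log2 fold change of 5.07 became 5.94 without control replicate 2.

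Interferon-stimulated genes did not rise with the cytokines. Of 32 tested, 2 rose and 11 fell, with a median of -0.27. IFIT1, an antiviral effector, fell from 27.8, 44.6 and 28.5 CPM to 11.2, 8.35 and 11.8 CPM, and ISG15, a ubiquitin-like modifier, rose from 69.3 ± 11.3 to 142 ± 20.4 CPM. Control replicate 2 had the highest level of IFIT1, OAS1 and SAMD9L, and without it the list counted 6 higher and 10 lower, with a median of -0.09. Without control replicate 1 it counted 2 higher and 17 lower. HLA class I and antigen-processing genes showed 1 higher and 7 lower of 19, or 11 lower without control replicate 1 and 12 lower by DESeq2. NLRC5, the activator of HLA class I genes, fell 2.61-fold, while the peptide transporter gene TAP1 rose 1.82-fold.

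Of 28 airway defence and acute-phase genes, 10 had enough counts, and 7 of these fell and 3 rose (median -1.25). Of the 10, 2 passed the filter only through their control level and 1 only through bleomycin. The summed level of the list was higher in bleomycin (3151 to 3838 CPM) than in control (2132 to 2763 CPM), where C3 makes up most of it. SAA2 and SAA1, serum amyloid genes whose reads may be shared, fell from 9.27 ± 0.387 to 0.524 ± 0.199 CPM and from 95.1 ± 2.30 to 24.8 ± 4.81 CPM. CEBPD encodes a transcription factor of the acute-phase response. It stood at 113, 108 and 114 CPM in control and 16.1, 13.2 and 18.3 CPM in bleomycin. Its groups did not approach each other. CD14, the lipopolysaccharide co-receptor, fell 9.77-fold (21.4 ± 2.30 to 2.18 ± 0.519 CPM). ELF3, an epithelial ETS factor, was at 34.1, 38.6 and 38.5 CPM in control and 1.40, 1.09 and 0.860 CPM in bleomycin, a 32.8-fold fall (log2 fold change -5.04, SE 0.15, edgeR adjusted p = 2.46e-12). Complement C3 rose from 2092 ± 288 to 3250 ± 349 CPM, and SERPINA1, alpha-1-antitrypsin, from 26.2 ± 2.79 to 64.3 ± 4.88 CPM.

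**Figure D3:**
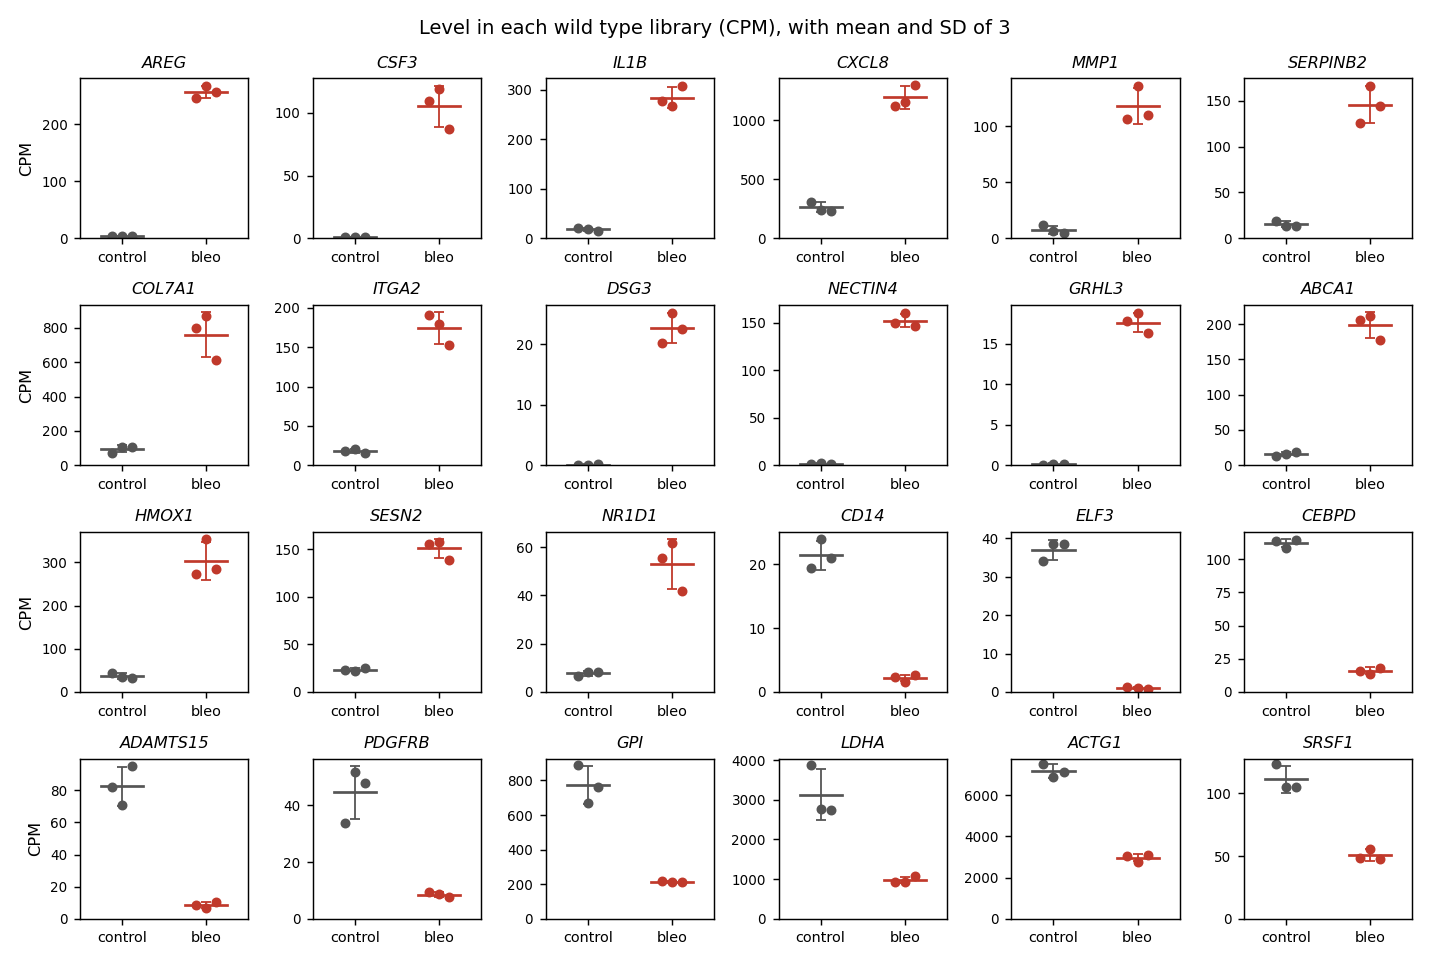
Points are the 3 control (grey) and 3 bleomycin (red) libraries of 24 genes in CPM, bars are means and whiskers SDs, and every axis starts at 0. The 24 genes were picked from the named genes, which were chosen for their changes, so groups that lie apart are no added support. All bleomycin libraries lie on the same side of all controls in each, as in 62.2% of all tested genes. AREG, for example, lies at 3.16 to 3.79 against 246 to 267 CPM.

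Genes of squamous differentiation appeared from very low control levels. Of 50 listed cornified envelope genes, 19 were tested, 13 of them higher and 3 lower (median 3.25). Of those 19, 8 passed the count filter only through their bleomycin level, so the share called is no measure of the whole list. The summed level of all 50 was 70.3 to 77.5 CPM in control and 374 to 426 CPM in bleomycin. GRHL3, a transcription factor of epidermal barrier formation, stood at 0.0505, 0.183 and 0.163 CPM in control and 17.8, 18.8 and 16.4 CPM in bleomycin (log2 fold change 6.98, SE 0.25). CSTA (cystatin A) rose from 14 counts over the 3 controls to 1290, and the envelope protein gene IVL (involucrin) from 14 to 192. ABCA12, the keratinocyte lipid transporter, rose from 13 counts to 1150, with a log2 fold change of 6.55 that became 7.24 without control replicate 2. LCE1F, a late cornified envelope gene, had 3 control counts and 1143 treated counts, a ratio of 414 (95% exact interval 141 to 2010.4, counting error only). The fitted log2 fold change of LCE1F, which depends on the prior count, was 8.52, or 9.41 without control replicate 3. LCE1E had no control count and 559 treated counts, which is at least 202-fold higher when the group's 0 is taken as up to 3 counts. FLG, filaggrin, was already present in control and rose from 33.9 ± 4.53 to 122 ± 14.2 CPM. SERPINB3 went the other way, from 86 counts over the controls to 0, at least 26.4-fold lower. The deiminase genes PADI3 and PADI4, whose enzymes modify keratin and histone proteins, rose from 0.570 ± 0.210 to 13.0 ± 0.941 CPM and from 0.218 ± 0.0612 to 30.8 ± 1.47 CPM. PADI2 fell 3.32-fold.

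Of 12 tested keratins, 9 rose and 3 fell (median 1.30), with 18 of 30 not tested. Keratins counted 10 higher and 3 lower of 13 without control replicate 1, with a median of 2.00. The hair keratin gene KRT81 stood at 33.6, 34.2 and 18.9 CPM in control and 205, 212 and 236 CPM in bleomycin, and KRT34 rose 13.0-fold (4.35 on the log2 scale without control replicate 2, 3.69 with it). Keratins of simple epithelium went both ways. KRT19 and KRT7 rose 3.48-fold and 1.63-fold. The pair KRT8 and KRT18 fell, from 673 ± 73.9 to 447 ± 47.9 CPM and from 263 ± 34.9 to 131 ± 16.5 CPM. KRT80 fell 4.16-fold. Of 12 tested desmosome genes, 5 were higher and 6 lower, and 2 of the 12 passed the count filter only through their bleomycin level. DSG3 and DSC3 encode the cadherins of stratified epithelium. DSG3 had 0.101, 0.0457 and 0.109 CPM in control and 20.2, 25.2 and 22.4 CPM in bleomycin, and DSC3 rose from 9 counts over the controls to 498. PKP2, the plakophilin of simple epithelium, fell from 36.8 ± 2.58 to 10.2 ± 1.11 CPM. PERP, a desmosome gene and known p53 target, rose from 44.2 ± 3.55 to 129 ± 7.53 CPM.

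Tight and adherens junction genes showed 8 higher and 11 lower of 26. NECTIN4, a junction protein of skin and bladder, stood at 1.31, 1.97 and 1.36 CPM in control and 149, 160 and 147 CPM in bleomycin, and rose 97.1-fold (log2 fold change 6.60, SE 0.12, edgeR adjusted p = 2.31e-14). CDH3 (P-cadherin) rose 4.90-fold and CLDN1, the claudin of stratified epithelium, rose from 76.0 ± 13.2 to 293 ± 22.7 CPM. CLDN3 fell 3.97-fold from 2.96 ± 0.521 CPM. CDH1, E-cadherin, was low in both groups (1.80 ± 0.544 and 1.05 ± 0.127 CPM). Its call (edgeR adjusted p = 0.0476) was lost when any single library other than control replicate 1 was left out, with adjusted p between 0.0617 and 0.215. Of 20 mucin genes, 5 were tested, 3 of them only through their bleomycin level. The summed level of all 20 overlapped between groups (12.2 to 34.5 CPM in control and 17.0 to 23.4 CPM in bleomycin). MUC2 rose from 4 counts to 467, and MUC5AC, the main gel-forming airway mucin, had 2 control counts and 217 treated counts (ratio 118, 95% exact interval 32.2 to 980). MUC1, a membrane mucin, fell from 11, 30.9 and 32.2 CPM to 3.16, 1.5 and 1.99 CPM. Control replicate 1 was far below the other controls and still above every treated library. Cilium genes counted 8 higher (30.8%) and 10 lower (38.5%) of 26, with a median of 0.05. Of the 26, 3 passed the filter only through their bleomycin level. The summed level of the list was 1195 to 1367 CPM in control and 741 to 804 CPM in bleomycin. FOXJ1, the regulator of motile cilia, had no control count and 47 treated counts (at least 17.0-fold higher), while DNAH11, a dynein of the ciliary axoneme, fell 4.21-fold.

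Collagen genes moved in both directions. Of 27 tested collagens, 12 rose and 4 fell (median 0.24), and the summed level overlapped between groups (3036 to 4792 CPM in control and 3660 to 4068 CPM in bleomycin). The control sums were widely spread (SD 889 CPM, against 206 CPM in bleomycin), so this overlap cannot show whether the sum changed. COL17A1, a hemidesmosome collagen, stood at 1.41, 0.823 and 0.381 CPM in control and 39.1, 44.6 and 34.3 CPM in bleomycin. COL7A1, the anchoring fibril collagen, stood at 72.1, 107 and 106 CPM and at 799, 867 and 614 CPM. Both rose in every treated library, although control replicate 1 and bleomycin replicate 3 lay apart from their groups in COL7A1. COL4A6 rose 4.06-fold. The fibril-associated collagen gene COL12A1 fell from 827 ± 170 to 217 ± 19.3 CPM and COL8A2 fell 4.55-fold. COL1A1, the main fibrillar collagen of scar tissue, showed 537, 1007 and 1209 CPM in control and 598, 575 and 565 CPM in bleomycin, which overlapped (log2 fold change -0.66, SE 0.30, edgeR adjusted p = 0.122). Without control replicate 1 the value was -0.94 and passed (adjusted p = 3.80e-08), and the list then counted 8 lower. Fibronectin, FN1, rose from 1958 ± 408 to 2779 ± 198 CPM. The collagen-modifying enzymes counted 10 higher and 10 lower of 24. PLOD2, the lysyl hydroxylase of fibrotic collagen, fell from 1401, 1431 and 1360 CPM to 646, 583 and 650 CPM, and the prolyl hydroxylase gene P4HA1 fell 2.32-fold.

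Integrins counted 5 higher and 6 lower of 13, with 8 higher of 16 tested without bleomycin replicate 3. ITGA2, the collagen receptor subunit, rose from 18.5, 20.5 and 15.4 CPM to 192, 179 and 153 CPM, and ITGA3, a laminin receptor subunit, rose from 773 ± 35.1 to 1738 ± 81.3 CPM. In both genes every treated library was above every control. ITGB8, which activates latent TGF-beta, fell from 107 ± 23.0 to 21.4 ± 2.23 CPM, and ITGB4, the hemidesmosome integrin, from 202 ± 46.5 to 82.0 ± 8.92 CPM. Among laminins, 6 of 16 rose and 5 fell, or 8 and 3 of 17 without control replicate 3. LAMC3 had 7 counts over the controls and 331 over the treated libraries (log2 fold change 5.61, or 6.66 without control replicate 2), LAMA1 rose 7.89-fold, and LAMA4 fell 3.50-fold.

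Of 27 tested metalloproteinases and inhibitors, 12 rose and 9 fell. MMP1, interstitial collagenase, stood at 11.4, 6.13 and 4.36 CPM in control and 107, 136 and 110 CPM in bleomycin (log2 fold change 4.01, SE 0.34). MMP3 (stromelysin 1) rose 14.0-fold and ADAMTS1 14.2-fold. The gelatinase gene MMP2 fell from 246 ± 37.8 to 94.9 ± 7.37 CPM and ADAMTS15 from 82.6 ± 12.1 to 8.71 ± 1.68 CPM. The inhibitor gene TIMP3 rose 7.41-fold. In the plasminogen and coagulation list 8 of 19 rose and 4 fell. SERPINB2, an inhibitor of plasminogen activators, stood at 18.9, 13.4 and 13.7 CPM in control and 126, 167 and 144 CPM in bleomycin. SERPINB2, THBD (thrombomodulin) and F2RL2, a thrombin receptor, rose 9.50-fold, 4.61-fold and 20.2-fold. F3, tissue factor, fell 1.68-fold.

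The TGF-beta and BMP list was balanced, 12 higher and 12 lower of 35. INHBA, the activin A subunit, rose from 5.90 ± 0.127 to 30.6 ± 3.43 CPM, and LTBP2, a latent TGF-beta binding protein, from 30.2 ± 5.13 to 145 ± 5.41 CPM. BMP4 fell from 36.5, 53.3 and 46.0 CPM to 7.05, 5.24 and 5.97 CPM, while BMP2 rose 5.97-fold, so the paralogs went opposite ways. TGFB2 fell from 208 ± 27.9 to 142 ± 6.59 CPM. Mesenchymal markers stayed near the background (6 higher, 5 lower of 19). Within them ACTA2, smooth muscle actin and a p53 target, rose from 1.01, 1.78 and 1.14 CPM to 59.8, 64.7 and 62.4 CPM. SNAI2, the repressor Slug, rose from 11.7 ± 0.754 to 99.4 ± 4.92 CPM, while TWIST1 fell 2.08-fold. YAP and TAZ targets counted 6 higher and 10 lower of 22, with AMOTL1 3.60-fold higher.

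Notch pathway genes counted 8 higher and 8 lower of 23, or 7 and 5 of 24 without bleomycin replicate 2. The ligand gene JAG1 stood at 19.4, 19.5 and 17.3 CPM in control and 120, 124 and 114 CPM in bleomycin. The receptor genes NOTCH3 and NOTCH1 rose 7.92-fold and 2.98-fold. Of the targets, HES1 rose 3.40-fold and HES2 from 15 counts to 906, while NRARP, a feedback inhibitor, fell 2.38-fold. WNT genes were balanced at 12 higher and 12 lower of 32. DKK1, the secreted antagonist, rose 5.39-fold, WNT4 and WNT9A rose 13.5-fold and 5.17-fold, and WNT6 and the receptor gene FZD7 fell 13.6-fold and 2.07-fold. Of 28 tested semaphorin and plexin genes, 12 rose and 10 fell (median 0.16), and of 14 ephrin and Eph genes, 5 rose and 8 fell (median -0.34). SEMA3B, known as a p53 target, rose from 42.3 ± 6.43 to 171 ± 7.60 CPM and SEMA4B fell from 265 ± 7.82 to 87.6 ± 7.47 CPM. EFNB1 rose 8.53-fold and EFNA1 fell 3.49-fold.

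Glycolysis fell nearly as a whole. Of 23 tested enzymes, 20 fell, 1 rose and 2 were not called (median -0.80). The summed level went from 20928 to 27730 CPM in control to 11686 to 12777 CPM in bleomycin. LDHA, lactate dehydrogenase A, stood at 3879, 2758 and 2748 CPM in control and 932, 929 and 1078 CPM in bleomycin. GPI, phosphoglucose isomerase, stood at 890, 671 and 761 CPM and at 219, 212 and 215 CPM. In both the first control library was the highest and all treated libraries were far below every control. Without control replicate 1 the list still counted 20 lower, with a median of -0.69. PGK1, ENO1, GAPDH and HK2, enzymes of other steps of the pathway, fell 2.89-fold, 2.50-fold, 1.83-fold and 2.87-fold. PFKFB4, which makes the allosteric activator of phosphofructokinase, was the 1 enzyme gene that rose, from 42.5 ± 10.4 to 94.5 ± 14.0 CPM.

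The hypoxia response, whose transcription factor HIF-1 drives many glycolysis genes, was called in all 25 members, 17 lower and 8 higher (median -0.81). CA9, the membrane carbonic anhydrase and a standard HIF-1 target, stood at 148, 96.7 and 132 CPM in control and 3.32, 3.11 and 3.01 CPM in bleomycin, a 39.7-fold fall (log2 fold change -5.31, SE 0.19). BNIP3, a mitophagy receptor, fell from 490 ± 96.7 to 156 ± 6.10 CPM and PPFIA4 from 53.6 ± 10.2 to 8.37 ± 0.826 CPM. The noncoding host gene of the hypoxia-induced miR-210, MIR210HG, fell 4.65-fold. The list did not move as 1 block, and its summed level overlapped between groups (3712 to 4184 CPM in control and 4064 to 4222 CPM in bleomycin). ANGPTL4, an angiopoietin-like secreted protein, rose from 25.6, 19.2 and 9.64 CPM to 144, 137 and 118 CPM, VEGFA rose 1.95-fold and BHLHE40 1.90-fold.

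HIF-1 binds the core letters ACGTG. In the 250 bases before the RefSeq gene start (GRCh38.p14), ACGTG occurred on either strand in 18.5% of 27305 promoters, in 12 of the 22 hypoxia genes that matched a RefSeq promoter (54.5%) and in 8 of 21 matched glycolysis genes (38.1%). The promoters of fallen genes below show the match in capitals, written as CACGT where it lies on the other strand and with matches of overlapping letters taken once. A match is a string of letters and was not tested as a binding site. Hypoxia genes with a match also included ANGPTL4 and BHLHE40, which rose. As HIF-1 is the factor of the hypoxia response, a high share was built into that list. The stretches come from chr9:35673898-35673926 (CA9, plus strand, match 18 bases before the start), chr1:203026241-203026490 (PPFIA4, plus strand, 119 bases) and chr11:18394313-18394387 (LDHA, plus strand, 185 bases). The LDHA stretch is cut back where an annotated transcript begins. The CA9 match reaches into an annotated transcript and is shown with 12 bases on either side. The whole LDHA window holds 3 matches, of which 1 is printed.
CA9: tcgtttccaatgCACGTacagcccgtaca
PPFIA4: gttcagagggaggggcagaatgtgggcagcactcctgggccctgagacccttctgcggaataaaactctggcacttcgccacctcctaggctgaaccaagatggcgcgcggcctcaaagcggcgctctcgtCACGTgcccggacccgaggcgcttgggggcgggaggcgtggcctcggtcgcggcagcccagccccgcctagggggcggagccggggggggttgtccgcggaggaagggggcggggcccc
LDHA: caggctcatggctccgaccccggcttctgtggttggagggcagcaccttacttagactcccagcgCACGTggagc

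Citrate cycle and pyruvate entry genes counted 12 lower and 5 higher of 35, or 9 higher without control replicate 1, and 18 were not called. PDHB, a pyruvate dehydrogenase subunit, and PDK1, a kinase that inhibits that enzyme, fell 2.15-fold and 2.83-fold. RRM2B, the p53-induced ribonucleotide reductase subunit, rose from 32.7, 33.1 and 32.7 CPM to 292, 314 and 289 CPM, within a nucleotide synthesis list of 8 higher and 12 lower of 30. Sterol genes were lower in 12 of 25 and higher in 7. DHCR7, the last synthesis enzyme, fell 2.54-fold. SREBF2, the transcription factor of this pathway, fell from 182 ± 17.6 to 121 ± 8.82 CPM. The sterol exporters ABCA1 and ABCG1 rose. ABCA1 stood at 12.5, 15.9 and 18.9 CPM in control and 206, 212 and 178 CPM in bleomycin, and ABCG1 rose 9.70-fold. In ABCA1 every treated library was far above every control. Fatty acid genes were lower in 16 of 29, including the desaturase gene SCD (85.1 ± 4.97 to 43.4 ± 1.49 CPM), and higher in 7, including the lipid droplet coats PLIN2 and PLIN4 (2.32-fold and 12.1-fold).

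Of 22 tested eicosanoid genes, 9 rose and 6 fell (median 0.09), and 5 passed the filter only through bleomycin and 1 only through control. Their summed level went from 789 to 864 CPM in control to 618 to 696 CPM in bleomycin. ALOX5, 5-lipoxygenase, had no count in any control and 4.86 ± 0.368 CPM in bleomycin (269 counts, at least 97.4-fold higher). CYP4F3 and CYP4F2, hydroxylases of leukotriene B4, rose from 8 counts to 2041 and from 5 to 729. Their log2 fold changes of 8.06 and 7.20 became 8.84 without control replicate 1 and 7.92 without control replicate 3. They neighbour each other on chromosome 19, where reads of the family may be split. PTGIS, prostacyclin synthase, fell from 4.45, 6.58 and 6.32 CPM to 0.104, 0.0576 and 0.269 CPM. The log2 fold change of -5.26 was -6.03 without bleomycin replicate 3.

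The integrated stress response, in which the factor ATF4 raises amino acid synthesis and its inhibitors when translation is curbed, rose in 17 of 23 tested members and fell in 2 (median 1.06). ATF4 itself rose 1.63-fold (208 ± 7.79 to 339 ± 8.08 CPM). SESN2, a sestrin that restrains mTORC1 and also a p53 target, stood at 22.6, 22.4 and 25.4 CPM in control and 155, 158 and 139 CPM in bleomycin. DDIT3 (CHOP) stood at 5.86, 5.4 and 4.96 CPM and at 48.2, 47.9 and 52.6 CPM. In both genes the treated libraries were close to each other and far above the controls. NUPR1, CHAC1, TRIB3 and PSAT1 rose 18.8-fold, 7.92-fold, 3.90-fold and 3.47-fold. Cytosolic tRNA synthetases followed, 12 of 20 higher and 1 lower (median 0.31). SARS, the serine enzyme, rose from 135, 115 and 114 CPM to 312, 351 and 359 CPM, WARS rose 2.43-fold and GARS 1.98-fold, and DARS fell 1.58-fold.

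ATF4 and its partners bind TGATGNAA, where N is any base. On either strand it lay in 3.26% of all 27305 promoters, in 2 of 19 matched stress response genes (10.5%) and in 2 of 16 matched synthetase genes (12.5%). Both list shares thus rest on 2 genes each. As ATF4 is the factor of the stress response, a high share was built into that list. The string TGANTCA covers the letters bound by AP-1 and, with any base at N, others as well. It lay in 6.74% of all promoters, 4 of 15 matched interleukins (26.7%) and 3 of 17 matched metalloproteinases (17.6%). Besides all promoters, each string was searched only in lists picked for it, and no match was tested as a binding site. IL11 is shown as a gene that holds a match. Its match, in capitals, lies 96 bases before the start at chr19:55370464-55370713 (minus strand, GRCh38.p14).
IL11: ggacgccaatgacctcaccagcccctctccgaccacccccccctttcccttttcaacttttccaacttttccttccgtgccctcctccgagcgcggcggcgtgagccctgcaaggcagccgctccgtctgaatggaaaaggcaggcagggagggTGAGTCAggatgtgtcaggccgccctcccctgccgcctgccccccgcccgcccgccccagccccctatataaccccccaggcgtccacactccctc

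Antioxidant genes moved both ways, 14 higher and 11 lower of 33. HMOX1, heme oxygenase 1, stood at 44.5, 34.7 and 32.0 CPM in control and 272, 354 and 285 CPM in bleomycin. AKR1B10 rose from 19 counts to 1093 (log2 fold change 5.94, or 6.70 without control replicate 2), and the cystine transporter gene SLC7A11 rose 3.07-fold. TXNRD1, thioredoxin reductase and a standard NRF2 target, fell from 848 ± 78.3 to 331 ± 22.7 CPM, so known targets of the same factor diverged. Of 7 tested metallothionein and zinc genes, 4 rose, among them MT2A 1.86-fold and the zinc exporter gene SLC30A1 3.19-fold, and 1 fell. In the endoplasmic reticulum list, 13 of 29 rose and 3 fell, or 8 and 4 without control replicate 2 and 8 and 3 without control replicate 3. The sensor gene ERN1 (IRE1) rose from 14.7, 17.4 and 17.1 CPM to 114, 128 and 95.3 CPM and its target XBP1 1.55-fold, while the chaperone gene HSP90B1 fell 1.31-fold. Cytosolic chaperones were lower in 15 of 32 and higher in 7. HSPA4L rose 4.12-fold, and HSPA1A, the inducible HSP70, fell 2.13-fold.

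Lysosome genes rose in 21 of 48 and fell in 8, mostly by small amounts (median 0.16). FUCA1, a lysosomal fucosidase and p53 target, rose from 21.5, 21.5 and 17.8 CPM to 83.0, 81.2 and 87.2 CPM. The vacuolar ATPase, which acidifies lysosomes, counted 10 higher and 2 lower of 19, with ATP6AP2 1.68-fold and ATP6V1H 1.60-fold higher. Autophagy genes were near the background (10 higher and 8 lower of 36, or 11 and 5 without bleomycin replicate 2), with the receptor gene SQSTM1 (p62) rising from 228 ± 14.1 to 697 ± 26.0 CPM and MAP1LC3B 1.97-fold.

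Transcripts of the ribosome and of respiratory complex I hardly moved. Of 76 cytosolic ribosomal protein genes, 8 rose and 1 fell (median 0.08), and the count of rises was 28 without control replicate 1 and 2 without control replicate 2, control replicate 3 or bleomycin replicate 3. RPS19 rose in every library, from 697, 547 and 583 CPM to 1119, 1185 and 1388 CPM. Of 37 nuclear complex I genes, 5 rose and none fell. Without control replicate 1 the count was 8 higher and 0 lower, without control replicate 3 it was 3 and 3, and without bleomycin replicate 3 it was 4 and 5. The proteasome counted 9 higher and 2 lower of 34, or 16 higher without control replicate 1 and 5 without control replicate 2 or 3. Of 13 mitochondrially encoded messenger RNAs, 2 rose and 2 fell. The mitochondrial ribosomal RNA gene MT-RNR2, whose transcript carries a short poly(A) tail, stood at 2286, 2186 and 2129 CPM in control and 4838, 5061 and 6548 CPM in bleomycin. MT-RNR1 rose 1.60-fold. Reads of mitochondrial genes may be shared with nuclear copies. Ribosome biogenesis genes counted 16 lower and 11 higher of 44. UBTF, which loads RNA polymerase I, fell 1.74-fold and the processing factor gene RRP12 rose 2.40-fold.

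**Figure D4:**
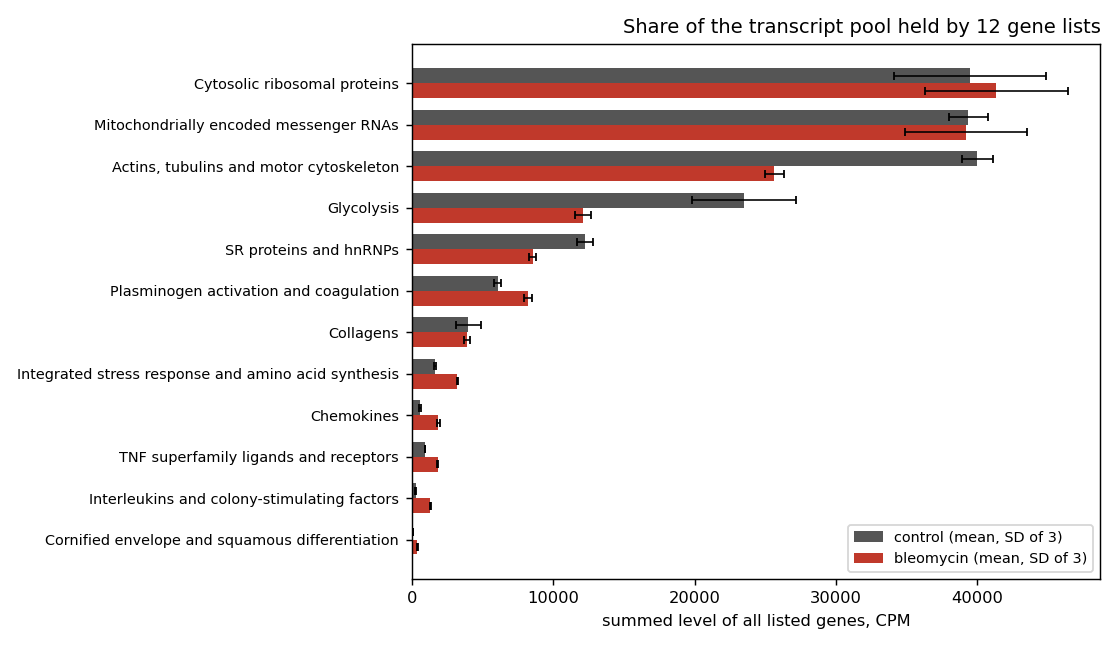
Bars are the mean summed level (CPM) of all listed genes in control (grey) and bleomycin (red) for 12 lists, with the SD of 3 libraries. Cytoskeleton, glycolysis and splicing factor lists lie lower in bleomycin, the chemokine, interleukin and stress response lists lie higher, and the ribosomal, mitochondrial and collagen bars overlap within their SDs.

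More RNA-binding and nuclear structure genes fell than rose, with small median changes. Among 36 SR proteins and hnRNPs, the core regulators of splicing, 30 fell and 1 rose, with a median of -0.46 and a summed level that went from 11842 to 12862 CPM down to 8405 to 8822 CPM. SRSF1 stood at 123, 105 and 105 CPM in control and 48.8, 55.9 and 47.3 CPM in bleomycin. SRSF2 and HNRNPM fell 2.32-fold and 1.85-fold, and SRSF8 rose 1.98-fold. Nuclear pore genes fell in 20 of 31 and rose in 4 (median -0.34). NUP210 fell 2.74-fold. DNA replication genes fell in 23 of 41 and rose in 6, or in 9 without control replicate 1, in 4 without bleomycin replicate 2 and in 3 without control replicate 2, control replicate 3 or bleomycin replicate 3. The helicase gene MCM6 fell 2.17-fold, and PCNA, the polymerase clamp and a p53 target, rose from 340 ± 19.8 to 651 ± 51.1 CPM.

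Lamina and chromatin genes fell in 19 of 28 and rose in 6 (median -0.43). LMNB1, whose loss marks senescent cells, stood at 367, 349 and 361 CPM in control and 116, 109 and 118 CPM in bleomycin. HMGB2 fell 3.66-fold and LMNB2 2.96-fold. HMGA2, an architectural factor of senescence-associated heterochromatin, rose from 15.6 ± 3.74 to 84.8 ± 6.56 CPM. Of the histone genes seen in poly(A) RNA, 7 of 14 tested were higher and 3 lower. Their summed level was nevertheless lower in bleomycin (1191 to 1337 CPM) than in control (1466 to 1659 CPM). HIST1H2BJ rose 4.29-fold, with reads that may be shared within the family.

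The cytoskeleton lost the largest share of the transcript pool among the lists. Of 34 actin, tubulin and motor genes, 27 fell and 2 rose (median -0.47), and the summed level went from 38792 to 40900 CPM in control to 24879 to 26059 CPM in bleomycin. ACTG1 lost more CPM than any other tested gene, from 7527, 6883 and 7123 CPM to 3070, 2765 and 3101 CPM, and ACTB fell from 5931 ± 156 to 2912 ± 204 CPM. TUBB and TUBA1B fell 1.73-fold and 1.97-fold. Genes often taken as constant references, ACTB and GAPDH, were thus called lower here.

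Circadian clock genes counted 11 lower and 6 higher of 19. NR1D1 encodes the repressor REV-ERB alpha. It rose from 6.57, 8.23 and 8.34 CPM to 55.5, 61.9 and 41.8 CPM, and PER2 rose 2.93-fold, while the activators DBP and HLF fell 3.38-fold and 3.00-fold. Quiescence factors were even (9 higher, 9 lower of 23), with KLF4 5.28-fold higher and KLF9 2.35-fold lower. Potassium and sodium channel genes rose in 17 of 31 tested and fell in 7 (median 0.64), and 7 of them passed the filter only in bleomycin. Potassium and sodium channels had a median of 1.25 over 35 tested without bleomycin replicate 3. SCN4B, a sodium channel subunit, stood at 1.21, 1.14 and 1.58 CPM in control and 32.7, 33.7 and 33.2 CPM in bleomycin. SCN2A had no control count and 158 treated counts (at least 57.2-fold higher).

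A set of 116 genes had no count in any control and at least 30 over the bleomycin libraries, against 2 the other way, SERPINB3 and AQP5. They comprised 72 protein-coding genes, 21 lincRNAs and 7 antisense genes. Besides LCE1E and ALOX5, ITGAM, the leukocyte integrin CD11b, had 300 treated counts (at least 109-fold higher), and the neural transcription factor gene POU3F2 had 179 (at least 64.8-fold higher). NKX2-5, a heart factor, rose from 0.543 ± 0.192 to 25 ± 2.30 CPM, and NHLH2, a neuronal factor, from 2 control counts to 583 (ratio 317, 95% exact interval 87.3 to 2622). The fitted log2 fold change of NHLH2 was 8.06, or 10.63 without control replicate 2. Of the 2054 genes at least 2-fold higher, 1063 had a control mean under 1 CPM. The noncoding RNAs PINCR and PURPL, both described as p53-induced, had 3 control counts each and 1066 and 799 treated counts. Without control replicate 3 the fitted log2 fold change of PINCR went from 8.42 to 9.30, and that of PURPL to 8.89, each a move of over 1.5 times. LUCAT1 fell from 31.6 ± 4.5 to 5.99 ± 1.14 CPM. Other protein-coding genes with large falls were PLEKHS1 (482 counts to 10), PIF1, a helicase of dividing cells (33.6 ± 2.65 to 2.25 ± 0.346 CPM), and RARRES1 (18.2 ± 4.22 to 1.81 ± 0.0764 CPM).

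Kinds of genes differed in the direction of their calls. LincRNAs were called higher in 34.9% and lower in 11.2% of 605 tested, and antisense genes in 27.0% and 9.87% of 831, against 30.1% and 30% of 13199 protein-coding genes. Among 521 tested C2H2 zinc finger factors, 36.3% were higher and 11.9% lower, and of the 222 on chromosome 19, 38.7% and 4.05%. HMG factors went the other way, 16.7% higher and 50% lower of 30, as did bHLH factors with 26.9% and 46.2% of 52. The split moved with abundance. Genes with a mean over 100 CPM were higher in 24.4% and lower in 42.5%, and genes under 1 CPM in 30.7% and 6.49%. Some tested genes lay below the filter level in every control and could hardly be called lower. They were 91 of the lincRNAs, 93 of the antisense genes and 444 of the protein-coding genes. Among the 1848 genes under 1 CPM they were 483. The part of this filter, of abundance and of power at low counts in the biotype and family shares was not tested. By gene span, the shortest of 5 equal bins was called higher in 25.2% and lower in 18.7%, and the longest in 31.7% and 31.1%. The shortest bin exceeded the longest by 0.05 in median log2 fold change (SD 0.04 over the 3 bleomycin libraries), or by 0.018 without bleomycin replicate 3.

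**Figure D5:**
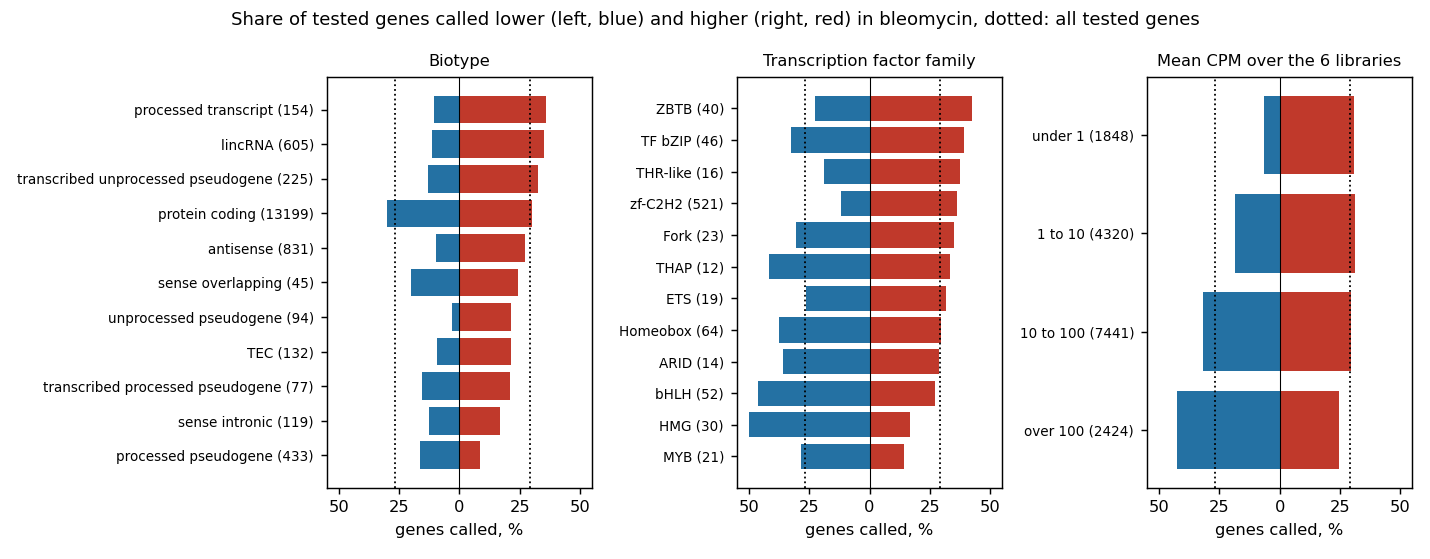
Bars give the percentage of tested genes called lower (blue, left) and higher (red, right) by biotype, by transcription factor family as named in the deposited table and by mean level in CPM, with the number tested in brackets and dotted lines at the shares over all tested genes. Noncoding classes and C2H2 zinc fingers have short blue bars, HMG and bHLH factors long ones, and the blue bars lengthen with the mean level.

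Some genes that rose at least 2-fold lay beside others that did, and whether there were more such runs than the number of rising genes gives was not tested. There were 33 runs of at least 4 adjacent tested genes all called at least 2-fold higher and 4 runs of such genes lower. The longest, 12 genes from FLG-AS1 to S100A6 on chromosome 1 (152168125 to 153536244 in the deposited table), holds HRNR, FLG, IVL and 5 late cornified envelope genes. An 8-gene run on chromosome 2 (112773915 to 113436042) starts at IL1A and IL1B and reaches past PAX8. Others hold KRT34, KRT15 and KRT19 on chromosome 17, EREG and AREG on chromosome 4, and CYP4F2 and CYP4F3 on chromosome 19. With the strand setting of the counting unknown, reads of a gene and of its antisense partner in these runs cannot be told apart.

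Markers of cell types were read in the same libraries. Of 12 epithelial markers, 9 had enough counts, with KRT7, KRT8 and KRT18 well above 100 CPM in control, EPCAM and CDH1 under 2 CPM, and the basal markers KRT5, KRT14 and TP63 at 3, 0 and 7 counts over the controls. ITGB4, the hemidesmosome integrin on the same list, was also above 100 CPM in control, as given above. The label of an epithelial line thus rested on its keratins and ITGB4. Among secretory and alveolar markers SCGB1A1, SCGB3A1, SFTPB and SFTPD had no control count. Leukocyte markers summed to 19.4 to 24.0 CPM in control, nearly all of it CD14, and 7.78 to 8.55 CPM in bleomycin, mostly ITGAM. The defining genes PTPRC, CD3E and LYZ had 2, 0 and 0 control counts and 16, 1 and 2 treated counts. Endothelial markers summed to under 6 CPM in every library. Fibroblast markers summed to 919 to 1573 CPM in control and 774 to 807 CPM in bleomycin, mostly COL1A1 and THY1, with PDGFRA, COL3A1, DCN and LUM at 3, 2, 0 and 0 control counts. PDGFRB fell from 33.8, 51.8 and 47.9 CPM to 9.28, 8.81 and 7.53 CPM, and COL1A2 rose 3.92-fold.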

How the data were processed

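RNA-seq was measured in 6 wild type libraries, 3 per group. Per the submitters' processing notes, the authors aligned reads with HISAT2 2.0.5 and used featureCounts 1.5.0-p3 to count them. Their genome build and strand setting were not given in the sources used here. The deposited count table holds whole-number counts of 58735 genes, and the deposited FPKM table holds the same counts divided by gene length and a library factor. Library totals were 16.9 to 21.9 megacounts.

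Counts were tested with edgeR 4.0.16 in R 4.3.3 (filterByExpr, TMM factors, robust quasi-likelihood fit, Benjamini-Hochberg adjustment over 16033 genes). CPM used TMM-adjusted totals, and standard errors came from the fold change and F. The procedure was tested on simulated data. Alternatives were DESeq2 1.42.0 and its size factors, upper-quartile factors, other count filters, a fit of all 12 libraries, a replicate block, limma 3.58.1 on log2(FPKM + 1) and log2(FPKM + 0.1) with FPKM of at least 0.5 in 3 libraries, and each library left out. Python 3.11.15, pandas 2.3.3, SciPy 1.17.1 and matplotlib 3.10.9 were used for summaries. Whether a group's libraries came from separate cultures is known only from the design text. P-values measure the spread between these libraries, and intervals and floors cover counting error only.

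The 69 lists and the members were chosen with earlier results of these data known. Named genes were the 12 protein-coding, 5 noncoding and 6 transcription factor genes with the largest called change in each direction (mean log2 CPM of at least 1, groups apart), up to 4 called members per list plus the one moving furthest against its majority, the 8 largest gains and losses in CPM and genes at 0 in one group. Other genes named were chosen after their values were seen. Promoters were the 250 bases before each gene start in RefSeq's table, matched by symbol.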

Additional observations from a re-analysis of the deposited data

How the results depend on the processing

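Against 4697 genes higher, 4289 lower, 2054 at least 2-fold higher and 884 at least 2-fold lower, 3247 were at least 2-fold higher with no filter on low counts. On log2(FPKM + 1), which shrinks folds of low genes, limma gave 860 and 370 at least 2-fold higher and lower. Leaving out each library gave 4303 to 4920 higher, 3796 to 4476 lower, 2071 to 2268 at least 2-fold higher and 867 to 993 at least 2-fold lower. Replicate numbers did not pair the libraries: same-numbered deviations correlated by -0.19, 0.08 and -0.19, and a fit with a replicate block called 4314 higher and 3876 lower, with 2032 and 865 at least 2-fold. The fit of all 12 libraries called 3990 higher and 3272 lower. Of 374 named genes, none reversed where tested, 0 to 12 lost their call per alternative (12 in the 12-library fit), and 27 were not tested by limma and 7 at 1 CPM. Counts moved over 1.5 times in 14 of 69 lists in the 12-library fit, 7 with no filter and 1 by DESeq2. Folds moved over 1.5 times in 117 of 347 genes on log2(FPKM + 1) and 47 on log2(FPKM + 0.1), and in 0 to 13 of 374 when 1 library was left out. With a count of 0 allowing 0.137 to 0.173 CPM, changes among rarer transcripts were not resolved.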
